A study of Mus musculus with 6 samples.

Results

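The genes described here are those by which endothelial cells set the tone of a vessel: endothelial nitric oxide synthase (Nos3), the caveolins (Cav1, Cav2), the dimethylarginine dimethylaminohydrolases (Ddah1, Ddah2), endothelin-1 with its converting enzyme and its B receptor (Edn1, Ece1, Ednrb), prostacyclin synthase (Ptgis) and angiotensin-converting enzyme (Ace). They were chosen by name. Each of the 10 was measured by 1 probe set that names it alone, out of 22180 genes so measured on the arrays. The cells were endothelial cells sorted from marrow of male C57BL/6J mice, 5000 cells per sample, with 3 arrays of diabetic and 3 of nondiabetic mice. Diabetes was brought on in the former by a high fat diet. A diet with 60 kcal% fat, eaten for 4 months, stands in the labels of every sample, the nondiabetic ones included, which leaves the diet of the latter unclear, and no age, genotype or other agent is given. Whether each array stands for a mouse of its own is not stated, so the p-values reflect the spread among these arrays and that spread could be technical.

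Nitric oxide made from arginine by Nos3 relaxes the muscle of the vessel wall. Cav1, the main coat protein of the membrane pits called caveolae, binds Nos3 and holds it inactive. Ddah1 breaks down methylated arginines that inhibit Nos3. Endothelin-1 is released from a precursor by Ece1 and constricts vessels through receptors on muscle, while its B receptor on endothelium clears it and drives release of nitric oxide and prostacyclin. Prostacyclin, made by Ptgis, relaxes vessels and keeps platelets quiet. Ace, which sits on the luminal face of endothelium, makes angiotensin II and degrades bradykinin.

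None of these genes passed the test for a difference between diabetic and nondiabetic marrow endothelium. Of the 10, 9 were bright enough to be tested, with a mean above the 40th percentile of all genes, a log2 value of 5.07. At a limma adjusted p under 0.05, 0 of these 9 were called, beside 0.00751% of the 13308 genes tested. At an unadjusted p under 0.05 the count was also 0, beside 4.25% of all tested genes, and for 0 of the 9 did the arrays of the groups lie apart, beside 7.95%. Of the 9, 4 were higher and 5 lower in the diabetic arrays, with a median log2 difference of -0.16, where the median over all tested genes was 0.019. Over all 10 the median was also -0.16, and single arrays carried much of it: it lay between -0.26, without diabetic replicate 1, and -0.029, without diabetic replicate 3. It was -0.25, -0.042, -0.069 and -0.082 without nondiabetic replicates 3, 2 and 1 and diabetic replicate 2. The limma adjusted p was 0.997 for each of the 9. Every result is on the log2 scale, and the levels of different probe sets cannot be compared with each other.

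**Figure D1:**
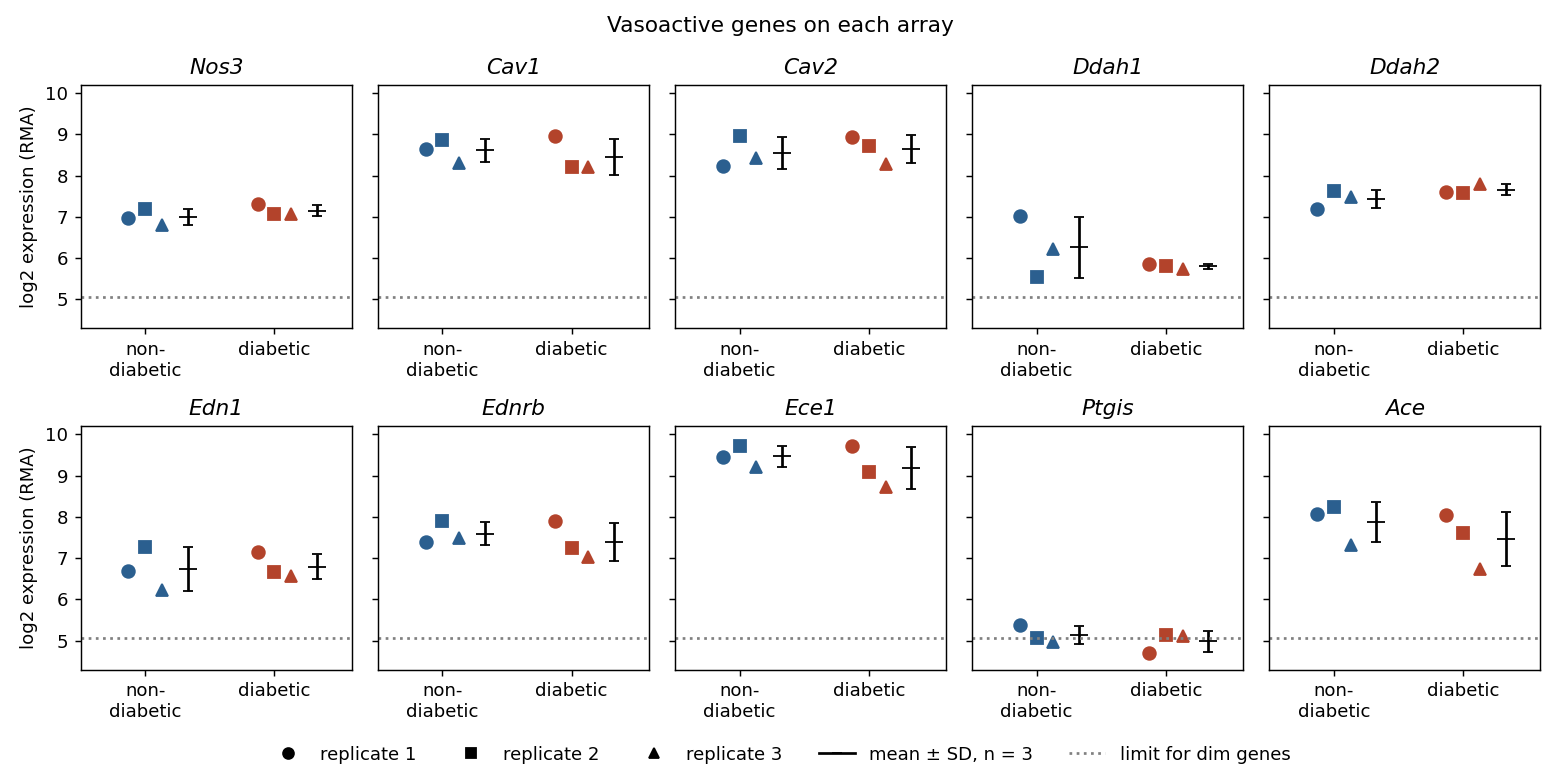
Log2 expression of each of the 10 genes on each array (y axis), for the nondiabetic (blue) and diabetic (red) groups (x axis); symbols mark replicate numbers, bars the mean ± SD of 3 arrays, and the dotted line the limit of 5.07 for dim genes. The groups overlap for every gene, Ddah1 is spread widely in the nondiabetic group only, and Ptgis lies along the limit.

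Most of the genes were highest on the same array of each group. Within the diabetic group, replicate 1 held the highest value for 8 of the 10 genes, and replicate 3 the lowest for 8. Over all tested genes these shares were 49.9% and 41.1%. Within the nondiabetic group, replicate 2 held the highest value for 8 of the 10 and replicate 3 the lowest for 6, where the shares over all tested genes were 37.3% and 38.9%. The exceptions at the top were Ddah2 and Ptgis in the diabetic group and Ddah1 and Ptgis in the nondiabetic group.

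The same arrays were high in general endothelial markers. The mean of 21 such markers, such as the junction genes Cdh5 and Pecam1 and none of the 10 genes, was 9.52 in diabetic replicate 1 and 8.89 and 8.91 in the other diabetic arrays. In nondiabetic replicates 1, 2 and 3 it was 9.17, 9.37 and 8.93. The mean of 11 arteriolar markers was 8.34, 7.79 and 7.69 in diabetic replicates 1, 2 and 3 and 8.32, 8.57 and 8.12 in the nondiabetic replicates; Sox17 stands in both lists. The arrays stood in the same order within both groups as for this arteriolar mean for Nos3, Cav1, Edn1, Ece1 and Ace, 5 of the 10 genes, beside 6.14% of all tested genes. In the order of the general endothelial mean they stood for 0 of the 10, beside 3.91%. These orders were looked for after the values had been seen, and the mean of the B lymphoid markers has the arteriolar one too. In such sorted samples, fewer cells of a type and less RNA per cell cannot be told apart.

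**Figure D2:**
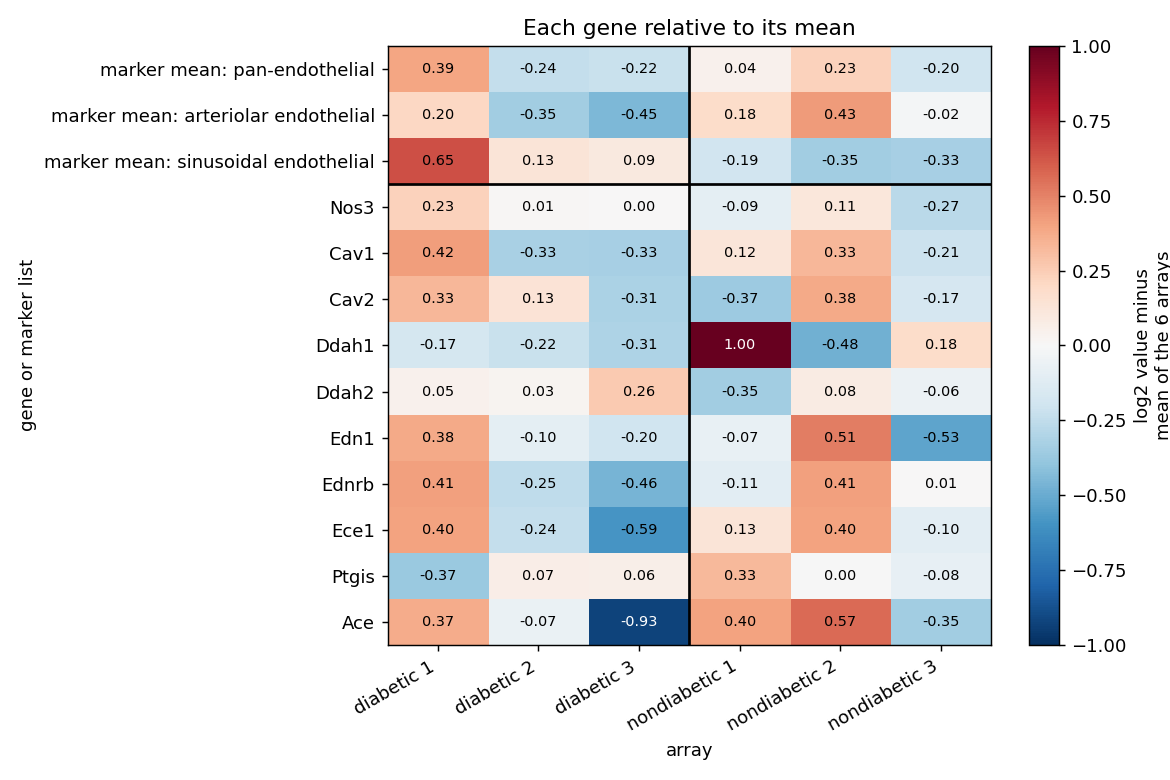
Log2 value of each gene, and of the mean of 3 endothelial marker lists (rows), minus its mean over the 6 arrays, for each array (columns). Colours run from blue, below the mean, to red, above it. Diabetic replicate 1 and nondiabetic replicate 2 are above the mean for Nos3, Cav1, Cav2, Edn1, Ednrb, Ece1 and Ace, as for the general endothelial mean. For Ddah2 they are so only slightly (0.05 and 0.08), and Ddah1 is darkest in nondiabetic replicate 1.

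The upstream sequences of Edn1, its enzyme Ece1, its receptor Ednrb and Ace are given as the peptide-system genes that were highest in diabetic replicate 1 and nondiabetic replicate 2 within their groups, and that of Ddah1 as a gene highest in nondiabetic replicate 1. Windows came from RefSeq promoters of mouse build GRCm38.p6, which matched 8 of the 10 genes, Nos3 and Ptgis not being among them. Each is the 250 bases before the outermost start, 5′ to 3′ on the gene's strand. Ece1 had 4 windows and Cav1 and Ace 2 each, and their other starts were not read. The shares over all windows given below include every start. Capitals mark matches, on either strand, to the motifs named after the sequences.
Edn1 (chr13:42301226-42301475, plus strand): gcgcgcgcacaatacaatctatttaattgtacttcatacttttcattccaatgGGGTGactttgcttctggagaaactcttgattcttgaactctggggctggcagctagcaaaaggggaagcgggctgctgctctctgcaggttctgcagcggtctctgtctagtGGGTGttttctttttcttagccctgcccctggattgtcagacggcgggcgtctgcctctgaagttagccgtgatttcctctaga
Ece1 (chr4:137861987-137862236, plus strand): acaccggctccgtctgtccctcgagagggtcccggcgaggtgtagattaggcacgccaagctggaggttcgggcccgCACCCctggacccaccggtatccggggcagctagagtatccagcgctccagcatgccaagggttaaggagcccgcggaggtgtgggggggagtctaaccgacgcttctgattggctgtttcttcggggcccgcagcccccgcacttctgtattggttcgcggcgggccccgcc
Ednrb (chr14:103843702-103843951, minus strand): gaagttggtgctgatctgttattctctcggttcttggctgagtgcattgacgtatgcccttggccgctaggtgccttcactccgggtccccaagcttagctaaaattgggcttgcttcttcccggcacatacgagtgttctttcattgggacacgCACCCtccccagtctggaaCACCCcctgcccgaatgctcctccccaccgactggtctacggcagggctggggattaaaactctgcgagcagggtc
Ace (chr11:105967698-105967947, plus strand): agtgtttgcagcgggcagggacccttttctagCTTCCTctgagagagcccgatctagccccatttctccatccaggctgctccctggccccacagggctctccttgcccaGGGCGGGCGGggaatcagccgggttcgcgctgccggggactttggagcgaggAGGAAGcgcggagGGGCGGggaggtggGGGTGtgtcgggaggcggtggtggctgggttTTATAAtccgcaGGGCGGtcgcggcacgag
Ddah1 (chr3:145758442-145758691, plus strand): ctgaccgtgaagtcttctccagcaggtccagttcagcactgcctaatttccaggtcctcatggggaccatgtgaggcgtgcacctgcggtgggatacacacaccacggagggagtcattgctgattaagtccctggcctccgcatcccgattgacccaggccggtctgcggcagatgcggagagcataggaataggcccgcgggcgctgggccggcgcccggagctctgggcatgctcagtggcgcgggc
The motifs were the GATA core GATAA, the AP-1 site TGANTCA, the TATA box TATAA, the GC box GGGCGG, the CACCC box CACCC, an ETS core AGGAAG and the E-box CACGTG. Overlapping capitals occur only in Ace, where a motif overlaps a further match to itself. CACCC was found for 5 of the 8 genes (Ddah2, Edn1, Ednrb, Ece1 and Ace), beside 52.0% of all 32851 windows. GGGCGG was found for 4 of the 8 (Cav1, Cav2, Ddah2 and Ace), beside 32.7%. TATAA was found for Cav1 and Ace, beside 22.8% of all windows, TGANTCA for Cav2 alone, beside 6.75%, and AGGAAG for Ace alone, beside 29.5%. GATAA and CACGTG matched 0 of the 8 windows, beside 22.6% and 6.02% of all windows. No motif was found in all the windows, and that of Ddah1 held 0 of the 7. The G and C content of the 8 windows ran from 50.4% for Edn1 to 67.2% for Ace, with a median of 52.4% over all windows. A match is a description of letters and not a bound site.

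Endothelial nitric oxide synthase was among the steadier of these genes. Nos3 stood at 7.31, 7.08 and 7.07 in diabetic replicates 1, 2 and 3 and at 6.98, 7.19 and 6.81 in nondiabetic replicates 1, 2 and 3. Nondiabetic replicate 2 lay above the lower diabetic arrays, so the groups overlapped. The means were 7.15 ± 0.13 and 6.99 ± 0.19 (SD, n = 3 each), and the difference of 0.16 (SE 0.17) had a 95% interval of -0.22 to 0.55, which in linear terms is 0.860-fold to 1.46-fold. The spread of Nos3 within the groups, an SD of 0.16, was at the 25.4th percentile of the tested genes. Leaving out single arrays gave 0.072 (nondiabetic replicate 3) to 0.26 (nondiabetic replicate 2), and 0.088 for diabetic replicate 1.

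The caveolin genes had differences of opposite sign, both well inside their errors. Cav1 stood at 8.95, 8.21 and 8.20 in the diabetic and 8.65, 8.87 and 8.32 in the nondiabetic replicates, so diabetic replicate 1 was the highest of the 6 arrays and the other diabetic arrays were the lowest. Its difference was -0.16 (SE 0.25) with a 95% interval of -0.73 to 0.41, with -0.41 when diabetic replicate 1 was left out and -0.033 when nondiabetic replicate 2 was. Cav2, the partner that joins Cav1 in caveolae, stood at 8.93, 8.73 and 8.28 in the diabetic and 8.23, 8.97 and 8.43 in the nondiabetic replicates. Nondiabetic arrays were both its highest and its lowest. Its difference was 0.10 (SE 0.25) with an interval of -0.47 to 0.67, with values of -0.037 when diabetic replicate 1 was left out and -0.053 when nondiabetic replicate 1 was, and 0.32 when nondiabetic replicate 2 was.

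The Ddah genes did not run together. Ddah1 stood at 5.86, 5.81 and 5.73 in the diabetic replicates, a range of 0.13. In the nondiabetic replicates it stood at 7.03, 5.55 and 6.22, a range of 1.48, so that 1 nondiabetic array lay below all diabetic arrays and the others above them. The means were 5.80 ± 0.066 and 6.27 ± 0.74 (SD, n = 3 each). The difference of -0.47 (SE 0.33), the largest in size among the 9, had a 95% interval of -1.23 to 0.30, and it was -0.085 without nondiabetic replicate 1 and -0.82 without nondiabetic replicate 2. Ddah2 stood at 7.59, 7.57 and 7.81 in the diabetic and 7.20, 7.63 and 7.49 in the nondiabetic replicates. Its highest array was diabetic and its lowest nondiabetic, with overlap through nondiabetic replicate 2, and the difference was 0.22 (SE 0.17) with an interval of -0.17 to 0.61. It was 0.10 when nondiabetic replicate 1 was left out and 0.15 when diabetic replicate 3 was. Nondiabetic replicate 1 was thus the highest of the 6 arrays for Ddah1 and the lowest for Ddah2.

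Endothelin-1 varied more between arrays of a group than between the groups. Edn1 stood at 7.15, 6.67 and 6.57 in the diabetic and 6.69, 7.28 and 6.23 in the nondiabetic replicates. Both the highest and the lowest array were nondiabetic. The difference of 0.058 (SE 0.28) had a 95% interval of -0.59 to 0.71, and leaving out single arrays moved it from -0.19, without nondiabetic replicate 3, to 0.33, without nondiabetic replicate 2.

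The converting enzyme and the receptor ran alike in the diabetic arrays, in the order that most of the 10 genes had there. Ece1, the protease that cuts the endothelin precursor, stood at 9.73, 9.08 and 8.74 in the diabetic and 9.45, 9.73 and 9.22 in the nondiabetic replicates. The top diabetic array stood level with the top nondiabetic array, and the other diabetic arrays lay below all nondiabetic ones. The difference was -0.28 (SE 0.27) with an interval of -0.90 to 0.33, becoming -0.060 without diabetic replicate 3 and -0.56 without diabetic replicate 1. Ednrb, the endothelial endothelin receptor, stood at 7.90, 7.24 and 7.03 in the diabetic and 7.38, 7.90 and 7.50 in the nondiabetic replicates. As for Ece1 and Cav1, diabetic replicates 2 and 3 lay below every nondiabetic array and nondiabetic replicate 2 was the highest of its group. The lowest nondiabetic array for Ednrb was replicate 1, where for Ece1 it was replicate 3. The Ednrb difference of -0.20 (SE 0.26) had an interval of -0.79 to 0.38. It was -0.024 without diabetic replicate 3 and -0.46 without diabetic replicate 1.

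Angiotensin-converting enzyme had the widest range among the 10. Ace stood at 8.04, 7.60 and 6.74 in the diabetic and 8.07, 8.24 and 7.32 in the nondiabetic replicates. The replicate 3 arrays were the lowest of both groups, and diabetic replicate 3 lay below all others. The means were 7.46 ± 0.66 and 7.88 ± 0.49 (SD, n = 3 each), and the difference of -0.41 (SE 0.36) had a 95% interval of -1.24 to 0.42, or 0.422-fold to 1.34-fold. The difference was -0.053 with diabetic replicate 3 left out and -0.70 with diabetic replicate 1 left out. Its SD within the groups, 0.58, was at the 95.5th percentile of the tested genes.

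Prostacyclin synthase was dim. Ptgis stood at 4.69, 5.13 and 5.12 in the diabetic and 5.39, 5.06 and 4.98 in the nondiabetic replicates. Its mean was 0.0045 under the limit of 5.07, a level at which the signal can be background only, and it was not tested. The arrays of both groups lay on either side of the limit, and the means differed by -0.16. Diabetic replicate 1, the top diabetic array for most of the genes, was the lowest of all for Ptgis.

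**Figure D3:**
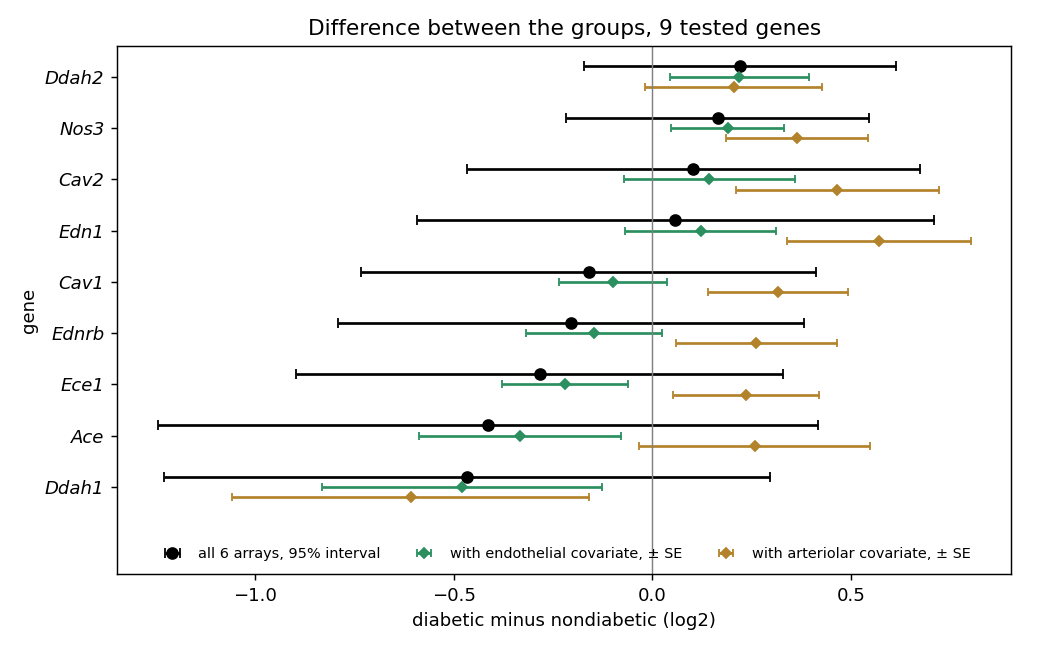
Difference between diabetic and nondiabetic arrays on the log2 scale (x axis) for the 9 tested genes (y axis): black points with 95% intervals from all 6 arrays, green and ochre points ± SE with the mean of general endothelial or of arteriolar markers per array in the fit. All black intervals cross 0, and Cav1, Ednrb, Ece1 and Ace pass from below to above 0 with the arteriolar markers.

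Taking up the endothelial markers in the fit gave smaller errors for all of the 9 but the Ddah genes and brought none past the test. With the mean of the general endothelial markers per array as a covariate, the SE of Cav1 was 0.14 in place of 0.25, that of Ece1 0.16 in place of 0.27 and that of Ednrb 0.17 in place of 0.26. For Ddah1 and Ddah2 it was 0.35 and 0.18, against 0.33 and 0.17. The differences became 0.19 for Nos3, -0.099 for Cav1, -0.22 for Ece1 and -0.33 for Ace, and the smallest limma adjusted p among the 9 was 0.963. With the arteriolar mean as a covariate, an alternative added after the data had been seen, the differences of Cav1, Ednrb, Ece1 and Ace were 0.32, 0.26, 0.24 and 0.26, each the opposite in sign of the values above. Those of Nos3, Cav2 and Edn1 were 0.37, 0.47 and 0.57, and that of Ddah1 was -0.61. The smallest limma adjusted p among the 9 was then 0.668. The arteriolar mean itself was 0.39 lower in the diabetic arrays, with overlap, so its difference enters that fit.

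The marker lists are described by their means per array, with no test. Of all tested genes, 7.95% did not overlap between the groups, but that share is for single genes and not for means of lists. All 21 general endothelial markers were above the limit for dim genes. The mean of 12 sinusoidal markers lay between 7.41 and 7.96 in the diabetic and 6.97 and 7.13 in the nondiabetic arrays, without overlap. Of the 12, 11 were above the limit. Adamts5 (1.94), Stab2 (1.09), Mrc1 (0.99), Abcc9 (0.76) and Gpr182 (0.73) lay higher in the diabetic arrays without overlap. Stab1, Flt4, Fcgr2b, Dnase1l3 and the dim Clec4g lay higher with overlap. Lyve1 (-0.061) and Oit3 (-0.0018) lay slightly lower, with overlap. The monocyte and macrophage mean lay at 6.09 to 6.23 against 5.79 to 5.97, with Adgre1, Mpeg1, Fcgr1, Cd163 and Vcan of its 14 markers below the limit. The neutrophil mean lay at 6.53 to 6.62 against no more than 6.51, with Ltf, Camp, Ly6g and Retnlg of 14 below it. The B lymphoid mean lay at 6.09 to 6.43 against 5.89 to 6.07, with Vpreb1 and Ms4a1 of 10 below it. The means of these 3 lists did not overlap between the groups either, and their markers ran both ways too. Pax5, Ebf1, Igll1 and Vpreb1 (B lymphoid), Ltf, Camp and Retnlg (neutrophil) and C1qa, C1qb and Vcan (monocyte and macrophage) lay lower in the diabetic arrays. The other measured markers of the 3 lists lay higher. Cd79a stood at 7.15 in diabetic replicate 1 and at 5.15 and 5.32 in replicates 2 and 3. S100a8 ran from 3.52 to 7.61 in the nondiabetic arrays. The megakaryocyte and platelet, erythroid, T and NK, mural and mesenchymal stromal means overlapped, and of the 12 mural markers, whose cells also carry several genes of vessel tone, 10 were above the limit, at means of 6.78 to 6.93 against 6.64 to 6.90. The part of these cells in the values of the 10 genes was not tested.

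The wider pathways were read from 6 lists of 111 genes, of which 98 were measured and 70 tested. By limma 0 of the 70 were called. At an unadjusted limma p under 0.05 there were 4 of the 70, beside 4.25% of all tested genes. The groups did not overlap for 4 that were higher and 3 that were lower in diabetic cells, beside 5.28% and 2.67% of all tested genes. In all, 29 lay higher and 41 lower in the diabetic arrays, with a median log2 difference of -0.025, against 0.019 over all tested genes.

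Of 21 tested genes of nitric oxide synthesis, 8 lay higher and 13 lower in the diabetic arrays (median -0.081), and 0 were called. Prmt1 methylates arginines and so gives rise to the inhibitors that Ddah1 degrades. It stood at 8.05, 7.70 and 8.10 in the diabetic and 7.44, 7.19 and 6.92 in the nondiabetic replicates. All diabetic arrays lay above all nondiabetic ones. The difference was 0.77 (SE 0.19), the smallest unadjusted limma p among the 70 at 0.0041, with an adjusted p of 0.997. Pts, of the synthesis of tetrahydrobiopterin, the cofactor of nitric oxide synthases, differed by 0.42 (SE 0.17), also without overlap. Gch1, the first enzyme of the same synthesis, differed by -0.12 (SE 0.45), with 5.11 in diabetic replicate 3 against 6.31 to 7.03 on all other arrays, and by 0.48 without that array. The third gene without overlap, Spr, of the last step of that synthesis and named here after its values were seen, differed by 0.40 (SE 0.20). These 3 of the 21 were higher without overlap, beside 5.28% of all tested genes.

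Of 10 tested genes by which cells respond to nitric oxide, 5 lay higher and 5 lower (median 0.032). Gucy1b1, a subunit of the guanylate cyclase that senses nitric oxide, differed by 0.43 (SE 0.30) with overlap, by 0.12 and 0.65 with diabetic replicates 3 and 1 left out and by -0.095 with the arteriolar covariate. Cyb5r3, a reductase that governs how globin scavenges nitric oxide, differed by -0.29 (SE 0.17) without overlap, and by -0.15 with diabetic replicate 2 left out. Of 12 tested genes of the caveolar coat, 7 lay higher and 5 lower (median 0.032). Cavin1, a coat protein, differed by 0.048 (SE 0.19) and, without diabetic replicate 1, by -0.095. Its partner Cavin2 differed by 0.20 (SE 0.25) and, without the same array, by -0.017. The membrane-shaping genes Ehd1 and Ehd3 differed by 0.31 (SE 0.21) and 0.28 (SE 0.19). For Ehd3 this was 0.14 with diabetic replicate 3 left out, 0.46 with diabetic replicate 2 left out and 0.069 with array weights. For Ehd1 it was 0.49 with nondiabetic replicate 2 left out and 0.58 with the arteriolar covariate.

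Of 5 tested genes of the endothelin system, 2 lay higher and 3 lower (median -0.020). Edn3, the ligand that prefers the B receptor, stood at 6.40, 6.45 and 6.57 in the diabetic and 7.05, 6.81 and 6.71 in the nondiabetic replicates, all diabetic arrays below all nondiabetic ones. Its difference was -0.38 (SE 0.16; limma adjusted p = 0.997). Edn2, near the limit for dim genes, differed by -0.16 (SE 0.16), and by -0.054 with diabetic replicate 1 left out, and the A receptor gene Ednra has no probe set that names it alone here. Ece2, a relative of Ece1 named after its values were seen, differed by 0.10 (SE 0.15). Its means of 5.37 and 5.27 were not far above the limit of 5.07. The groups barely missed overlap, with the lowest diabetic array at 5.365 and the highest nondiabetic array at 5.359.

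Of 14 tested prostanoid genes, 4 lay higher and 10 lower (median -0.045). Ptgs2, the inducible cyclooxygenase that feeds prostacyclin synthase, stood at 8.30, 8.72 and 8.37 in the diabetic and 7.95, 7.35 and 8.31 in the nondiabetic replicates. Nondiabetic replicate 3 overlapped the diabetic range, and the difference was 0.59 (SE 0.26; limma adjusted p = 0.997). It was 0.33 with nondiabetic replicate 2 left out and 0.25 with the arteriolar covariate. The thromboxane receptor gene Tbxa2r differed by -0.22 (SE 0.15) without overlap. The prostacyclin receptor gene Ptgir differed by -0.026 (SE 0.22), and by 0.16 without diabetic replicate 3, and Ptgs1 has no probe set that names it alone here. Of 8 tested genes of the angiotensin and kinin system, 3 lay higher and 5 lower (median -0.013). Prep, a peptidase that cleaves angiotensins, differed by -0.49 (SE 0.35). This ranged from -0.88 to -0.25 with diabetic replicates 1 and 2 left out in turn and was -0.077 with the arteriolar covariate. Agtrap, which binds the angiotensin receptor, differed by 0.18 (SE 0.16), and by 0.082 with nondiabetic replicate 1 left out. Agtr1a, Agtr1b and Agt, named after their values were seen, were below the limit for dim genes.

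**Figure D4:**
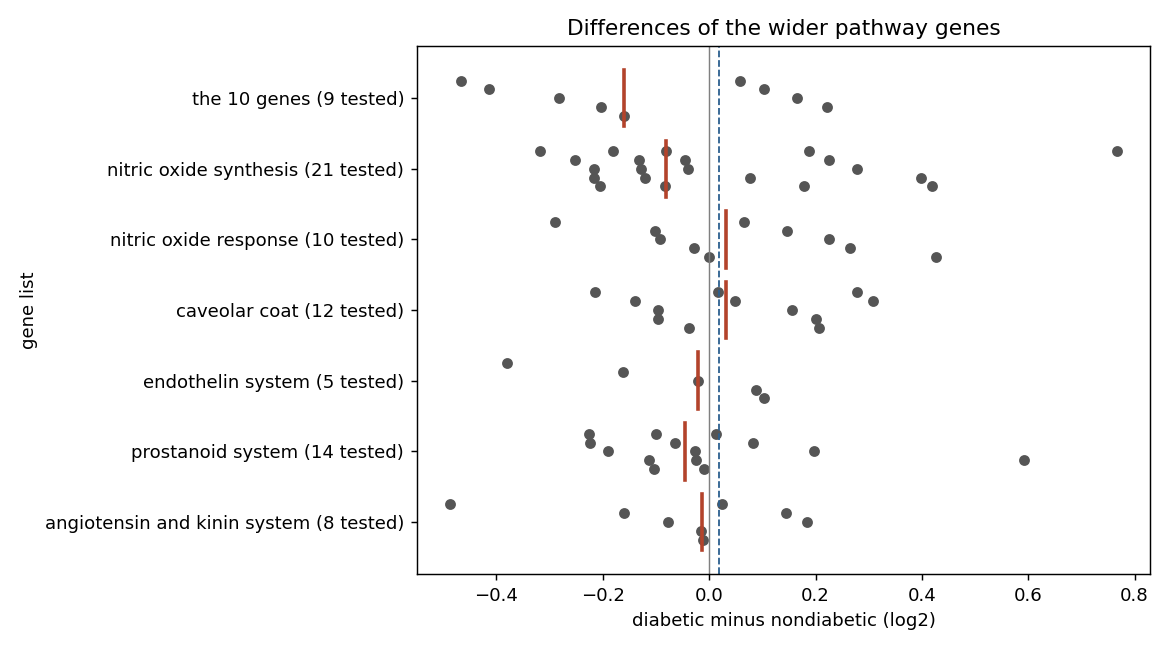
Log2 difference, diabetic minus nondiabetic (x axis), of each tested gene (grey points) in the 10 genes and the 6 wider lists (y axis); red bars are list medians and the dashed blue line the median of 0.019 over all 13308 tested genes. The 9 tested genes of the set have the lowest median, -0.16, and Prmt1 at 0.77 is the farthest point.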

How the data were processed

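RNA of the sorted cells was amplified (Ovation Pico WTA), labelled with biotin and hybridised to arrays, per the labels' protocols. Log2 expression values per probe set were deposited by the authors, and the submitters' processing notes name RMA, the robust multi-array average, as the method; for software, version and annotation, nothing is given in the sources used here. RMA sets arrays to a common distribution, so a change shared by most genes would not show. Gene names came from the platform annotation, which can be old. Of 41345 probe sets, 23521 named 1 gene, and each gene took the brightest of these by its mean over the 6 arrays. Array medians lay between 5.21 and 5.28, correlations between arrays, across tested genes, between 0.929 and 0.954, and the number of arrays limits the precision. The comparison used limma 3.58.1 under R 4.3.3 (lmFit, eBayes, no covariates) on the 13308 genes above the 40th percentile, with Benjamini-Hochberg adjustment over all of them at 0.05; the procedure was tested on simulated data. Intervals are 95% and unadjusted. The 10 genes and all lists were chosen with earlier results of these data known. Named genes are the 10, the 2 tested genes of each wider list with the smallest p, and Ednra, Ptgs1, Gch1, Cavin1, Cavin2 and Ptgir; others are pointed out. Alternatives were other filters on dim genes, the mean of probe sets, quantile normalization again, median centring, array weights, a replicate block, robust variances with a trend, marker covariates and leaving out each array.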

Additional observations from a re-analysis of the deposited data

How the results depend on the processing

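The count of called genes among the 10 stayed at 0 under all 16 alternatives, as did that among the 70 wider pathway genes tested. The count over all genes, 1 in the reported fit (Rabggtb, named after its values were seen), was 0 with the filter at the 60th percentile and ranged from 0 to 1 with single arrays left out, 0 being the value without nondiabetic replicate 3. The median difference of all 10 genes was -0.16 and moved to 0.26 with the arteriolar covariate. That over all tested genes moved from 0.019 to 0.087 with it. With single arrays left out the median of the 10 ranged from -0.26 to -0.029. Of 160 values of the 10 genes under the alternatives, 9 had the opposite sign. With the arteriolar covariate these were Cav1 at 0.32, Ednrb at 0.26, Ece1 at 0.24 and Ace at 0.26, and with array weights Edn1 at -0.066; the cause was not tested. With single arrays left out, Cav2 ranged from -0.053 to 0.32 and Edn1 from -0.19 to 0.33. Of the wider genes, the sign turned with array weights for Gch1 (0.11), Cavin1 (-0.062), Cavin2 (-0.10) and Ptgir (0.10), and with the arteriolar covariate for Gucy1b1 (-0.095), Gch1 (0.47) and Ptgir (0.032). Left-out ranges were -0.48 to 0.48 for Gch1, -0.095 to 0.14 for Cavin1, -0.017 to 0.44 for Cavin2 and -0.15 to 0.16 for Ptgir. Quantile normalization and median centring turned no sign among the 10. Same-numbered arrays are linked in the labels by the number only, and whether they were handled together is not stated. Their deviations from the group means correlated at -0.036, -0.064 and 0.016, which cannot decide it with 3 arrays a group. With the replicate block 0 of the 10 genes and 1 gene in all were called. The number of arrays, 3 a group, limits what could be called.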
